A study of Mus musculus with 24 samples.

Results

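The genes described here are 34 genes of the peroxisome, taken from the deposited expression table by their symbols. Of them, 12 encode peroxins, the proteins that build the organelle, and 22 encode its lipid enzymes, membrane transporters and channels, catalase and a protease. All 34 were found, each on 1 row, among 49452 genes in the table. They were followed through 24 RNA-seq libraries of primary (1°) adipocyte precursors from C57BL/6 mice, 3 libraries for each of 8 groups formed by depot, siRNA and day. The cells were the stromal-vascular fraction (SVF), what remains of the tissue after lipid-filled adipocytes are removed, of interscapular brown adipose tissue (BAT) or perigonadal visceral white adipose tissue (vWAT, labelled epididymal), which the study's methods describe as coming from male mice 6 to 8 weeks old, with BAT pooled between animals where cells were few. All cultures received an siRNA by nucleofection, either siH19, against the long non-coding RNA *H19*, or siCtrl, a non-targeting control, and none was left untransfected. Cells at d0 had not been induced, and cells at d3 were in adipogenic differentiation: an induction medium with insulin, dexamethasone and rosiglitazone, with IBMX for both depots by the labels but only for white depots by the methods, and with indomethacin and triiodothyronine listed for BAT alone, was followed by medium with triiodothyronine for BAT or rosiglitazone for vWAT. Medium and depot therefore went together, as did depot and the numbering series of the libraries, and their parts in any BAT against vWAT difference cannot be told apart. In the titles, the control siRNA appears as siKO, and siH19 is followed by a 3.

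Peroxisomes are small organelles with a single membrane that shorten very long and branched fatty acids, make the first steps of ether lipids and break down the hydrogen peroxide that their oxidases release. *Pex3*, *Pex16* and *Pex19* place proteins in the membrane, *Pex11a* takes part in the elongation and division of the organelle, *Pex5* and *Pex7* are the receptors that carry enzymes to it, *Pex13* and *Pex14* form the docking site, *Pex2* and *Pex10* are ubiquitin ligases of the import machinery, and *Pex6* and *Pex26* belong to the complex that pulls receptors back out. Peroxisomes become more abundant as adipocytes differentiate and are numerous in brown fat, and many of their genes are targets of PPAR transcription factors.

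Libraries within a group resembled each other (Pearson r across genes 0.974 to 0.981), no pair shared more than 0.0055% of its values, and none was left out. The values are FPKM, fragments scaled by transcript length and by the library's mapped fragments. The number of reads behind them is unknown, but the size of the smallest steps between values put relative depth at 0.825 to 0.983 in BAT and 1.02 to 1.17 in vWAT libraries. The RNA that the siRNA targets was lower in every siH19 group. In BAT at d3 *H19* was at 99.7, 86.4 and 83.2 FPKM in the siCtrl libraries and 12, 12.1 and 16.9 FPKM in the siH19 libraries, a difference of -2.64 (SE 0.14, limma adjusted p = 0.00132) in log2(FPKM + 1), and at d0 it was at 108, 160.4 and 122 and 2.82, 5.20 and 5.05 FPKM (-4.63). In vWAT it was at 8.67, 8.19 and 8.90 and 0.327, 0.291 and 0.966 FPKM at d3 (-2.68) and at 12.3, 11.3 and 11.6 and 1.23, 0.630 and 1.76 FPKM at d0 (-2.56), and every vWAT control library held less *H19* than every BAT control library. All differences below are in log2(FPKM + 1), on which changes of genes near 0 come out too small, and a gene was called higher or lower at a Benjamini-Hochberg adjusted p under 0.05, over all genes tested, with at least a 1.3-fold change, or for an interaction at the adjusted p alone. The labels do not say that replicate libraries came from separate animals, so these p-values measure the spread between libraries, which may be technical.

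The promoters of 4 members that the results below turn on are shown. RefSeq windows of 300 bases (GRCm38.p6, 250 before and 50 after the start of transcription, written along the gene's strand) were found for 27 of the 34 members. Capitals mark GC boxes (GGGCGG) and nuclear receptor half-sites (AGGTCA), either strand, and, for *Cat*, a pair of half-sites in direct repeat with 1 base between them (AGGTCANAGGTCA, at most 2 mismatches), the kind of site that PPAR and RXR bind as a pair. A TATA box (TATAAA) was also searched. A match describes the letters only. *Acaa1a* and *Acaa1b* are neighbouring, near-identical thiolase genes that ended up at unlike levels. *Ehhadh* had the largest difference in log2(FPKM + 1) from d0 to d3 in BAT, a scale that holds back genes starting near 0, such as *Acaa1b*. *Cat* was the 1 member whose window held the direct repeat.
*Acaa1a*, chr9:119341044-119341343, plus strand: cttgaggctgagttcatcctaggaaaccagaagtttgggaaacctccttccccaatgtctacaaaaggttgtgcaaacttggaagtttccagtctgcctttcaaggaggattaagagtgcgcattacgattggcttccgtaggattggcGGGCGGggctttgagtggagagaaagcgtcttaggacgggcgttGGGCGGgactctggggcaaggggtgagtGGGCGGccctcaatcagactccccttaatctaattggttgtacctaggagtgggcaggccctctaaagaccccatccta
*Acaa1b*, chr9:119157044-119157343, minus strand: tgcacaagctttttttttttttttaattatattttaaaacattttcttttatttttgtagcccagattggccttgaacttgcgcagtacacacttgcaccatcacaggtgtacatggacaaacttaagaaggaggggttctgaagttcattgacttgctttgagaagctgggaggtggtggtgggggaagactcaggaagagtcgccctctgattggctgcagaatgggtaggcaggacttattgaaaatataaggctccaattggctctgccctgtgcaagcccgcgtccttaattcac
*Ehhadh*, chr16:21787785-21788084, minus strand: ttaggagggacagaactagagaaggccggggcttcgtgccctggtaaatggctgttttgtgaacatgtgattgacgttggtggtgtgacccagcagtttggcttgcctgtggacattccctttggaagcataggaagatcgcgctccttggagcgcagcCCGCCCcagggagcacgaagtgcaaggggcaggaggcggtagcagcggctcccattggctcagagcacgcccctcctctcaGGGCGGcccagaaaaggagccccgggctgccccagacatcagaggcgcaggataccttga
*Cat*, chr2:103485104-103485403, minus strand: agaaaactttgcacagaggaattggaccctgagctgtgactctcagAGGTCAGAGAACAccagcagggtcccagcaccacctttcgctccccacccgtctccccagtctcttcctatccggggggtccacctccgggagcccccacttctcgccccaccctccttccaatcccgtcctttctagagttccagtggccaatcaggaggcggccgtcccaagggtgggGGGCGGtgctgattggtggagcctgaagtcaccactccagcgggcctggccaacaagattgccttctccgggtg

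The GC box was in the windows of 22 of the 27 members, and in 23 of their 32 windows (71.9%), against 35.7% of the 32851 windows of all genes. *Acaa1a* held 3 copies, *Ehhadh* 2, *Cat* 1 and *Acaa1b* none. The half-site was in 9.4% of member windows and 16.3% of all, and the direct repeat in 3.1% and 3.9%. The TATA box was in 9.4% and 13.6%.

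At d0 the members spanned a wide range of levels. In BAT siCtrl cells their group means ran from 0.406 FPKM (*Acaa1b*) to 173 FPKM (*Scp2*, the sterol carrier protein and thiolase of branched-chain oxidation), with a median of 17.2 FPKM. At d3 the range was 3.47 FPKM (*Pex26*) to 1178 FPKM (*Scp2*), with a median of 83.2 FPKM, while the median of all genes at 1 FPKM or more was 12 FPKM at d0 and 11.9 FPKM at d3. In vWAT siCtrl cells the median member was at 25.7 FPKM at d0 and 47.5 FPKM at d3. Summed over the 12 peroxins, BAT siCtrl libraries held 230.1 ± 5.27 FPKM at d0 (SD, n = 3) and 1123 ± 15.1 FPKM at d3, and vWAT siCtrl libraries 290.4 ± 5.05 and 699.5 ± 8.21 FPKM. The 22 enzymes and membrane proteins summed to 699 ± 22.7 FPKM at d0 and 3879 ± 109 FPKM at d3 in BAT, and to 887 ± 12.9 and 2324 ± 72.9 FPKM in vWAT. Both sums were thus lower in BAT than in vWAT before differentiation and higher in BAT after it, with no overlap between libraries of the depots.

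**Figure D1:**
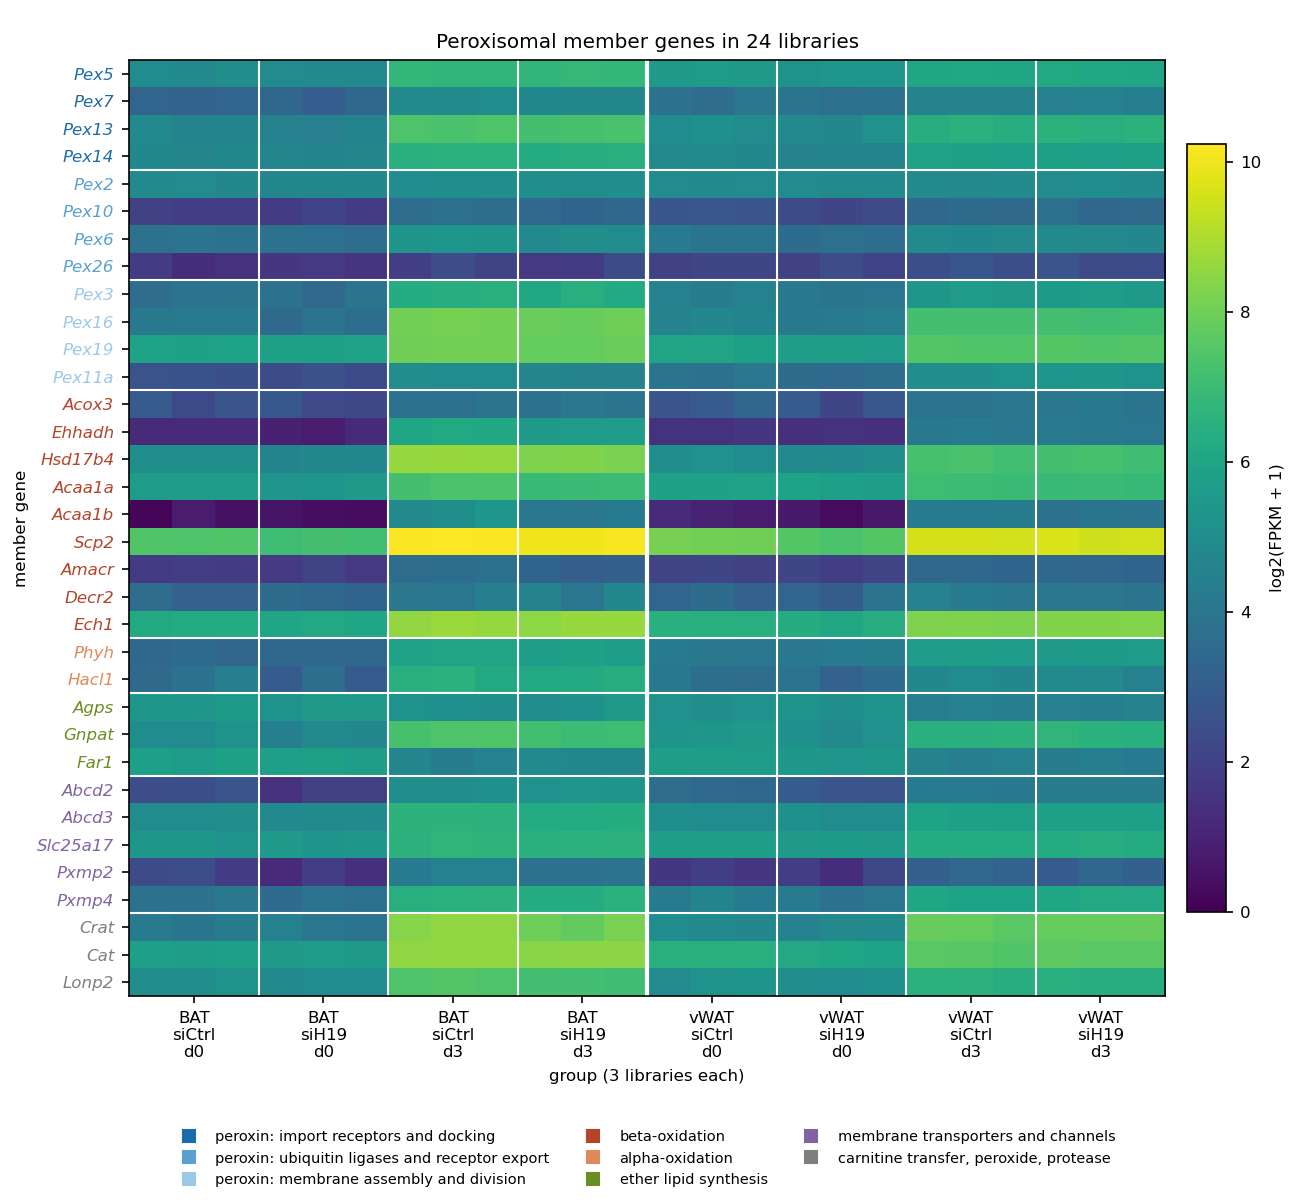
Heat map of log2(FPKM + 1), colour scale at the right, for the 34 member genes (rows, coloured by role) in 24 libraries (columns, 3 per group of depot, siRNA and day). Most rows are brighter at d3 than at d0 in both depots, *Far1* is darker, and *Scp2* is the brightest row, reaching a group mean of 1178 FPKM in BAT siCtrl cells at d3.

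Nearly all of these genes were higher in differentiating than in uninduced cells. From d0 to d3 in BAT siCtrl cells 31 of the 34 members rose and 1 fell, against 65.2% of all genes called, 29.9% higher and 35.3% lower, and the median difference of the members was 2.26 against -0.10 over all genes tested. In vWAT siCtrl cells 31 rose and 2 fell (50.3% of all genes called, 26.3% higher and 23.9% lower), with medians of 1.11 and 0.01. *Acaa1b* passed the filter on low values in BAT only through its d3 libraries, and in vWAT only with them, so that a difference was built into its being tested. In bulk cultures, fewer cells of a type and less RNA per cell cannot be told apart.

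All 4 genes of membrane assembly and division rose in both depots. *Pex16*, at 16.7, 17.5 and 17.9 FPKM in BAT siCtrl d0 libraries, reached 261, 276 and 273 FPKM at d3 (log2 difference 3.89, SE 0.044, limma adjusted p = 1.18e-08). In vWAT it went from 24.1 ± 1.96 to 145 ± 2.34 FPKM (SD, n = 3), a difference of 2.54. *Pex3* went from 11.7, 13.8 and 14.2 to 80.0, 82.5 and 87.1 FPKM in BAT and from 21.9, 18.5 and 21.3 to 41.8, 48.3 and 45.8 FPKM in vWAT, so that its d0 libraries were lower in BAT and its d3 libraries higher. The 4 import and docking genes rose as well, by 1.58 (*Pex7*) to 2.68 (*Pex13*) in BAT and 0.52 (*Pex5*) to 1.41 (*Pex13*) in vWAT. Among the ubiquitin ligases and the export complex, *Pex10*, *Pex6* and *Pex26* rose in both depots, but *Pex2* was not called in either, at 28.1, 29.4 and 25.8 FPKM and 30.8, 33.3 and 32.8 FPKM in BAT (0.21, 95% confidence interval 0.06 to 0.37) and with a difference of -0.06 in vWAT (-0.18 to 0.05). *Pex26* was the lowest peroxin at d3, with group means of 2.94 to 4.87 FPKM.

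All 9 β-oxidation members rose in both depots. *Ehhadh*, the bifunctional enzyme of the PPARα-inducible pathway, was at 1.33, 1.38 and 1.32 FPKM in BAT siCtrl d0 libraries and 66.4, 73.1 and 70.1 FPKM at d3 (log2 difference 4.92, SE 0.062, limma adjusted p = 1.49e-08). In vWAT it went from 1.82, 1.85 and 2.08 to 16.7, 16.9 and 15.7 FPKM (log2 difference 2.58, SE 0.073, limma adjusted p = 6.8e-07). *Acaa1b*, a 3-ketoacyl-CoA thiolase, was below 1 FPKM in the BAT d0 libraries, at 0.146, 0.698 and 0.373 FPKM, and reached 27.4, 33.4 and 40.5 FPKM at d3 (log2 difference 4.63, SE 0.19, limma adjusted p = 1.15e-06). The vWAT libraries held 1.38, 1.00 and 0.735 FPKM of it at d0 and 18.3, 17.5 and 18.7 FPKM at d3 (log2 difference 3.24, SE 0.12, limma adjusted p = 2.04e-06). Its paralog *Acaa1a* started at 48.8 ± 1.01 FPKM in BAT and ended at 156 ± 7.72 FPKM, a smaller log2 difference of 1.65 from a higher starting level. Because both thiolase genes share most of their sequence, the split of reads between them is uncertain.

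*Crat*, carnitine acetyltransferase, which passes acetyl groups to carnitine, had the third largest difference in log2(FPKM + 1) in BAT and the second largest in vWAT. It went from 17.6, 14.6 and 18.7 to 327, 378 and 369.9 FPKM in BAT (log2 difference 4.32, SE 0.10, limma adjusted p = 1.05e-07) and from 30.0, 27.8 and 25.9 to 228, 221 and 196 FPKM in vWAT (log2 difference 2.90, SE 0.078, limma adjusted p = 5.58e-07). *Hsd17b4*, the bifunctional enzyme of very long and branched chains, rose by 3.54 in BAT and 2.13 in vWAT. *Acox3*, *Amacr*, *Decr2*, *Ech1* and *Scp2*, the remaining β-oxidation members, rose by 0.80 (*Decr2*) to 2.76 (*Scp2*) in BAT. Both α-oxidation genes, *Phyh* and *Hacl1*, rose by 2.48 and 2.48 in BAT and by 1.55 and 0.99 in vWAT. All 5 transporter and channel genes (*Abcd2*, *Abcd3*, *Slc25a17*, *Pxmp2* and *Pxmp4*), catalase (*Cat*) and the protease *Lonp2* rose in both depots too.

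Ether lipid synthesis was the exception. *Gnpat*, the acyltransferase that opens the pathway, rose by 2.31 in BAT and 1.11 in vWAT. *Far1*, the reductase that supplies its fatty alcohol, fell in both depots. It was at 53.4, 49.6 and 55.8 FPKM at d0 and 24.4, 18.6 and 22.3 FPKM at d3 in BAT (log2 difference -1.25, SE 0.10, limma adjusted p = 3.52e-05), and at 50.3, 51.3 and 48.3 FPKM against 22.6, 20.0 and 22.1 FPKM in vWAT (log2 difference -1.18, SE 0.059, limma adjusted p = 6.77e-06), with no overlap between days. *Agps*, which exchanges the acyl group for that alcohol, fell in vWAT, from 34.8, 32.4 and 35.5 to 19.6, 21.9 and 20.1 FPKM (log2 difference -0.71, SE 0.063, limma adjusted p = 8.76e-05). In BAT it was at 42.1, 41.9 and 47.2 FPKM against 35.7, 34.5 and 33.5 FPKM, also without overlap, but its difference of -0.33 lay under the 1.3-fold limit. *Far1* was the only member whose d3 libraries were called lower in all 4 combinations of depot and siRNA.

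**Figure D2:**
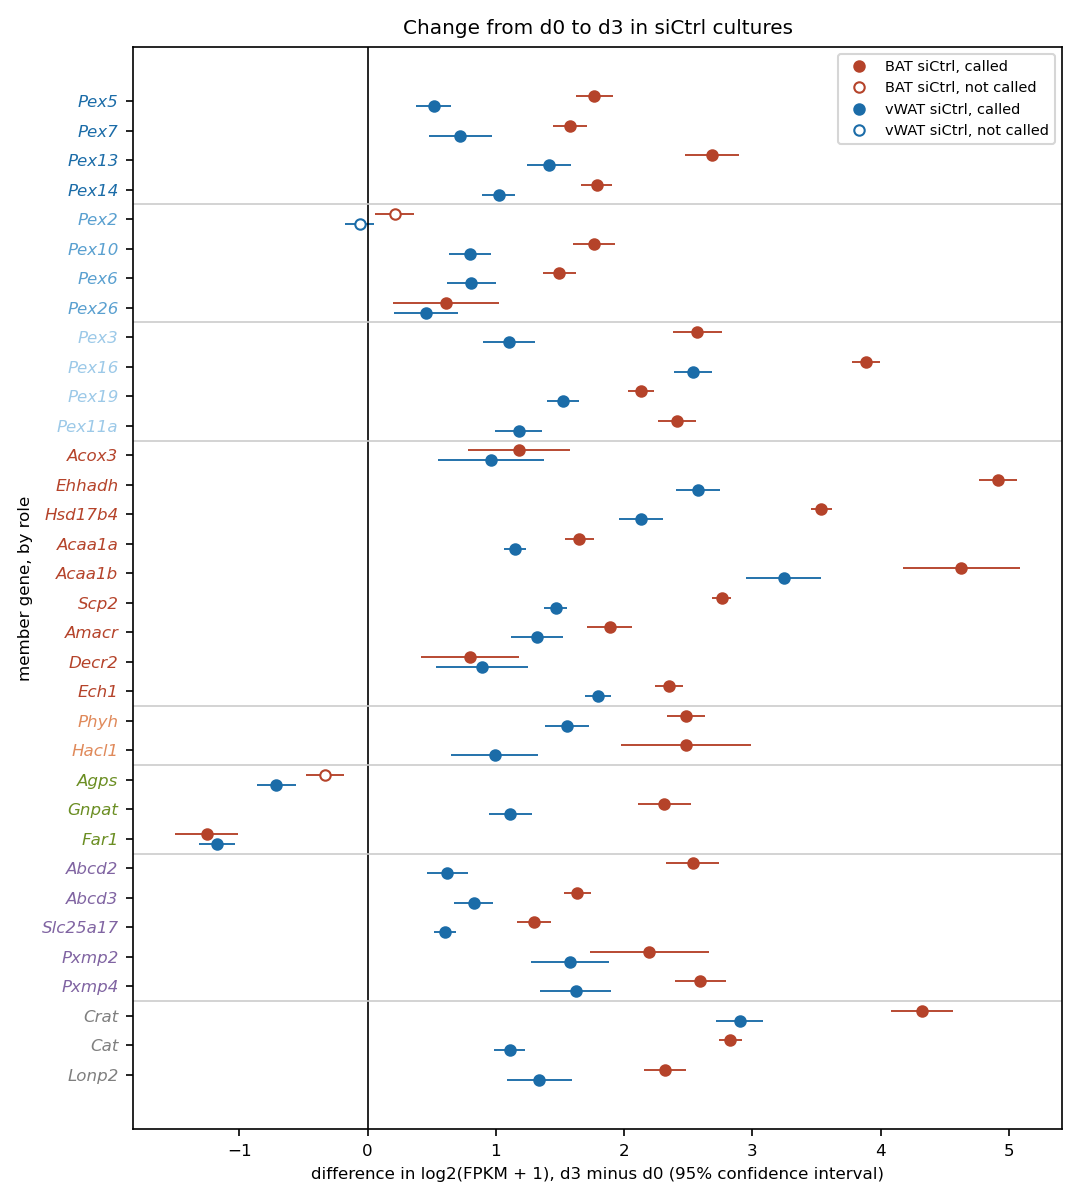
Difference in log2(FPKM + 1) between d3 and d0 for each member in siCtrl cultures (x axis), with 95% confidence intervals, BAT in red and vWAT in blue, filled where called and grouped by role. Most points lie right of 0, with BAT right of vWAT for *Ehhadh* (4.92 against 2.58), and *Far1* lies left of 0 in both depots.

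The marker lists moved over the same interval. All 9 adipocyte markers rose in both depots, and their sum was 3322 to 3612 FPKM at d0 and 40921 to 42705 FPKM at d3 across BAT siCtrl libraries. In vWAT it was 4382 to 4420.1 FPKM at d0 and 20772 to 21726 FPKM at d3. Of 6 precursor markers, 6 fell in BAT, and in vWAT 4 fell and 1 rose. The sum of the precursor list was 1219 to 1345 FPKM at d0 and 384 to 429.7 FPKM at d3 in BAT, and 626 to 685 FPKM at d0 and 706 to 786 FPKM at d3 in vWAT. The part of the marker shifts in the member differences was not tested. With siH19 the same interval gave 30 members higher and 1 lower in BAT (60.6% of all genes called, 30.8% higher and 29.8% lower) and 30 higher and 2 lower in vWAT (52.7%, 28.2% and 24.5%), with median differences of 2.22 and 1.38.

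Before differentiation these genes tended to be lower in BAT, and after it higher. The depot and day comparisons share the siCtrl libraries, and the siH19 comparisons below share them too. At d0 in siCtrl cells 13 of 33 members tested were lower in BAT than in vWAT and none was higher, against 31.2% of all genes called, 10.2% higher and 21% lower. At an unadjusted limma p under 0.05, 1 was higher and 20 lower, against 2273 higher and 5017 lower of all 13139 genes. The median difference was -0.32 for the members and -0.13 over all genes. *Pex11a* differed most, at 5.20, 5.00 and 4.61 FPKM in BAT and 14.5, 13.1 and 15.6 FPKM in vWAT (log2 difference -1.37, SE 0.084, limma adjusted p = 3.71e-05). *Abcd2*, a transporter of very long chain acyl-CoA, was at 4.36, 4.50 and 5.40 FPKM against 11.5, 10.3 and 10.1 FPKM (log2 difference -1.02, SE 0.096, limma adjusted p = 0.000241), and *Pex10* at 2.93, 2.70 and 2.71 FPKM against 5.68, 5.81 and 5.49 FPKM (log2 difference -0.82, SE 0.072, limma adjusted p = 0.000176). None of these 3, picked for the largest differences, overlapped between depots. The share of all genes without such overlap is not given here, at d0 or at d3. *Cat*, *Crat*, *Phyh*, *Scp2*, *Pex3*, *Pex5*, *Pex26*, *Pex7*, *Pex16* and *Pxmp4* were lower in BAT by 0.43 to 0.71.

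At d3, 22 of 34 members were higher in BAT and none was lower (48.6% of all genes called, 16.5% higher and 32.1% lower), with a median of 0.67 against -0.16 over all genes. At an unadjusted limma p under 0.05, 28 were higher and 2 lower, against 3178 higher and 5750 lower of all 13120 genes. *Ehhadh* was at 66.4, 73.1 and 70.1 FPKM in BAT and 16.7, 16.9 and 15.7 FPKM in vWAT (log2 difference 2.03, SE 0.055, limma adjusted p = 7.44e-07). *Hacl1*, the lyase of α-oxidation, was at 83.8, 91.7 and 74.3 FPKM against 26.6, 30.4 and 25.3 FPKM (log2 difference 1.57, SE 0.097, limma adjusted p = 1.63e-05), and *Hsd17b4* at 393, 405 and 387 FPKM against 151, 158 and 138 FPKM (log2 difference 1.40, SE 0.054, limma adjusted p = 2.28e-06). Every BAT library of these 3 genes, again picked for the largest differences, lay above every vWAT library. The 2 with estimates below 0 at that level were *Pex26* (-0.41) and *Pex11a*, which was at 30.9, 30.3 and 30.7 FPKM in BAT and 32.4, 33 and 35.9 FPKM in vWAT, a difference of -0.13 that was not called (95% confidence interval -0.26 to -0.01). Of the 31.1% of *Hacl1* exon bases that overlap a gene model on the same strand, and the 28.3% of *Pex14* that overlap one on the opposite strand, reads cannot be assigned with certainty.

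**Figure D3:**
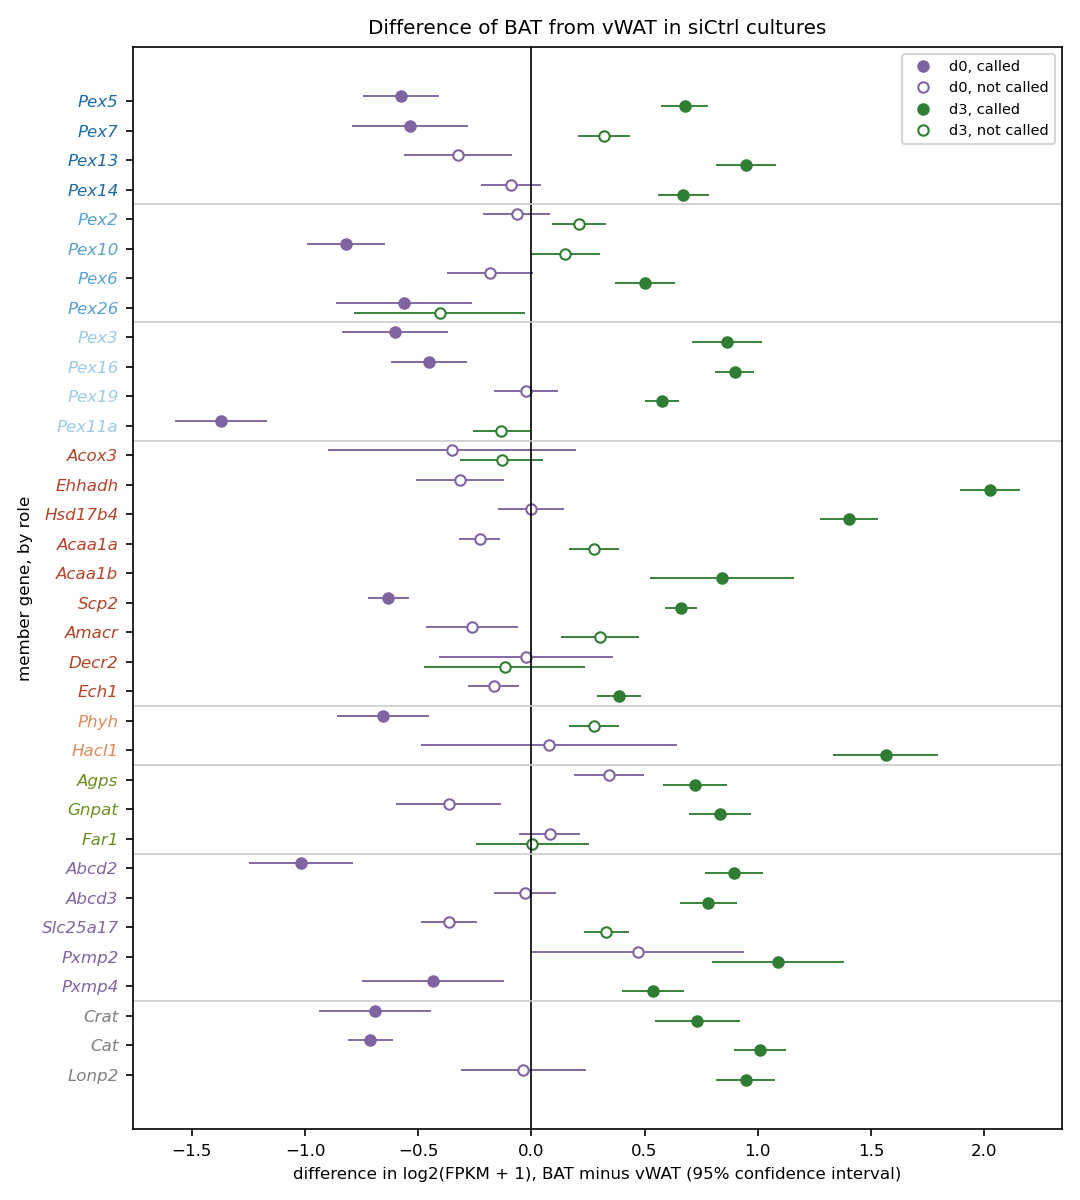
Difference in log2(FPKM + 1) between BAT and vWAT for each member in siCtrl cultures (x axis), with 95% confidence intervals, d0 in purple and d3 in green, filled where called. At d0 the called points lie left of 0 (13 members), and at d3 they lie right of 0 (22 members), with *Ehhadh* farthest right at 2.03.

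The change of the depot difference with day was tested itself, as an interaction over the 12 siCtrl libraries. It was called higher, with the difference between days further up in BAT, for 29 of 34 members and lower for none, against 53% of all genes called, 24.9% higher and 28.1% lower. The coefficient was 2.34 (SE 0.082, limma adjusted p = 5.89e-09) for *Ehhadh*, 1.91 (SE 0.11, limma adjusted p = 1.17e-07) for *Abcd2*, 1.72 (SE 0.061, limma adjusted p = 6.48e-09) for *Cat*, 1.49 (SE 0.28, limma adjusted p = 0.00108) for *Hacl1* and 1.47 (SE 0.12, limma adjusted p = 2.36e-06) for *Pex3*. The *Abcd2* libraries went from 4.75 ± 0.562 to 32.2 ± 1.51 FPKM in BAT and from 10.6 ± 0.775 to 16.9 ± 0.254 FPKM in vWAT. *Cat* was at 53.1, 50.3 and 53.2 FPKM at d0 and 369, 383 and 379 FPKM at d3 in BAT. In vWAT it was at 86.6, 84 and 87.8 FPKM at d0 and 195, 191 and 175 FPKM at d3, a smaller step from a higher start. *Hacl1*, given above for d3, was at 10.6, 13.1 and 19.9 FPKM in BAT and 16.6, 12 and 11.7 FPKM in vWAT at d0, where the depots overlapped. *Acox3*, *Decr2*, *Far1*, *Pex26* and *Pxmp2* were not called, with coefficients of -0.09 (*Decr2*) to 0.62 (*Pxmp2*). Scaling libraries to the median ratio of their genes moved the median of all genes in the depot comparison from -0.13 to -0.02 at d0 and from -0.16 to -0.04 at d3, and with it 12 members were called at d0 (11 lower and 1 higher) and 27 at d3, all higher.

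Other lists differed between depots too. At d3 all 8 brown adipocyte markers were higher in BAT, with sums of 820.0 to 935 FPKM against 154 to 172 FPKM in vWAT. *Ucp1*, *Cidea* and *Prdm16* were under 1 FPKM in every vWAT siCtrl library at d3 and were tested only through BAT, where they were higher. At d0 the sums were 10.4 to 12.8 and 16.4 to 22.2 FPKM, with 2 of 4 tested higher and 1 lower in BAT. The 2 higher, *Cox8b* and *Prdm16*, were again tested only through BAT. Adipocyte markers were lower in BAT for 4 of 9 at d0 and higher for 9 of 9 at d3. Macrophage markers were lower in BAT for 8 of 9 at d0, where *Ptprc* passed the filter only through vWAT, and 8 of 8 tested at d3. Their sum was 144 to 179 FPKM in BAT and 347 to 387 FPKM in vWAT siCtrl libraries at d0, and 150.3 to 182 and 611 to 663 FPKM at d3. Skeletal muscle markers (*Myod1*, *Myog*, *Myf5*, *Ttn*, *Actn2* and *Myh3*) summed to 31.1 to 51.6 FPKM in BAT and 0.0379 to 0.0700 FPKM in vWAT at d0, and *Myog* was listed at 0 in every vWAT library. The endothelial list was low in both depots, at 3.72 to 5.27 FPKM in BAT and 8.17 to 8.77 FPKM in vWAT at d3. The part of these lists in the member differences was not tested.

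In BAT at d3, *H19* RNAi went with lower levels of 7 members. Of 34 tested, 7 were lower in siH19 than in siCtrl cells and none was higher, whereas 8.57% of all genes were called, 6.39% higher and 2.18% lower. At an unadjusted limma p under 0.05, 21 were lower and 2 higher, against 1380 lower and 2533 higher of all 12500 genes. The median difference was -0.17 for the members and 0.05 over all genes tested, 28 of 34 estimates were below 0, and in 22 every siH19 library lay below every siCtrl library, which held for 13.1% of all genes. The 7 were 4 β-oxidation enzymes, 1 channel, 1 carnitine transferase and 1 peroxin.

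Among the β-oxidation genes, *Acaa1b* differed most. It was at 27.4, 33.4 and 40.5 FPKM in siCtrl and 16.1, 15.7 and 17.4 FPKM in siH19 libraries (log2 difference -0.98, SE 0.14, limma adjusted p = 0.0062), and the siCtrl libraries varied more between themselves than the siH19 libraries did. Of the *Acaa1b* exon bases, 11.4% overlap a gene model on the opposite strand. *Ehhadh* was at 66.4, 73.1 and 70.1 FPKM against 46, 47.5 and 48.6 FPKM (log2 difference -0.55, SE 0.052, limma adjusted p = 0.00267). *Amacr*, the racemase that prepares branched chains for oxidation, was at 11.5, 11.9 and 12.4 FPKM against 8.70, 7.65 and 7.78 FPKM (log2 difference -0.52, SE 0.075, limma adjusted p = 0.00713). These 3 genes stayed called in each of the 12 other settings tried (other scaling, filter, pseudocount, model or 1 library left out). *Hsd17b4* was at 393, 405 and 387 FPKM against 301, 309 and 288 FPKM (log2 difference -0.40, SE 0.039, limma adjusted p = 0.00294), and was not called when siH19 replicate 3 was left out.

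*Crat* was at 327, 378 and 369.9 FPKM in siCtrl and 248, 220.3 and 292 FPKM in siH19 libraries (log2 difference -0.51, SE 0.11, limma adjusted p = 0.0247), and 7.6% of its exon bases overlap a gene model on the opposite strand. *Pxmp2*, a channel of the peroxisomal membrane, was at 17.3, 21.5 and 21.5 FPKM against 13.4, 13.1 and 14.4 FPKM (log2 difference -0.53, SE 0.097, limma adjusted p = 0.0156), and 10.8% of its exon bases overlap a gene model on the opposite strand. Both calls were lost in 5 of 12 other settings, 4 of which left out 1 library (siCtrl replicate 2 or 3, or siH19 replicate 1 or 2). *Pex11a* was the 1 peroxin called, at 30.9, 30.3 and 30.7 FPKM against 24, 22.8 and 23.2 FPKM (log2 difference -0.38, SE 0.048, limma adjusted p = 0.00517), and its call was lost without siCtrl replicate 1, siH19 replicate 2 or siH19 replicate 3. In none of the 7 did the groups overlap. Without the 1.3-fold limit 15 members were called, all lower, against 2023 of all genes, 1322 higher and 701 lower.

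The other 11 peroxins were not called, with estimates of -0.38 (*Pex6*) to 0.06 (*Pex5*). *Pex6* lay just under the 1.3-fold limit (limma adjusted p = 0.0138) and was called lower in 7 of the 12 other settings. *Abcd2* went the other way, at 31.3, 31.4 and 34 FPKM in siCtrl and 35.6, 39.9 and 38.3 FPKM in siH19 libraries, without overlap but under the fold limit (log2 difference 0.23, SE 0.062, limma adjusted p = 0.0533). *Far1*, the gene that fell with differentiation, was at 24.4, 18.6 and 22.3 FPKM against 28.3, 26.6 and 24.6 FPKM (log2 difference 0.28, SE 0.11, limma adjusted p = 0.127). The sum over the 12 peroxins was 1123 ± 15.1 FPKM in siCtrl and 1013 ± 27.2 FPKM in siH19 libraries (SD, n = 3), and the sum over the 22 others 3879 ± 109 and 3344 ± 92.4 FPKM.

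**Figure D4:**
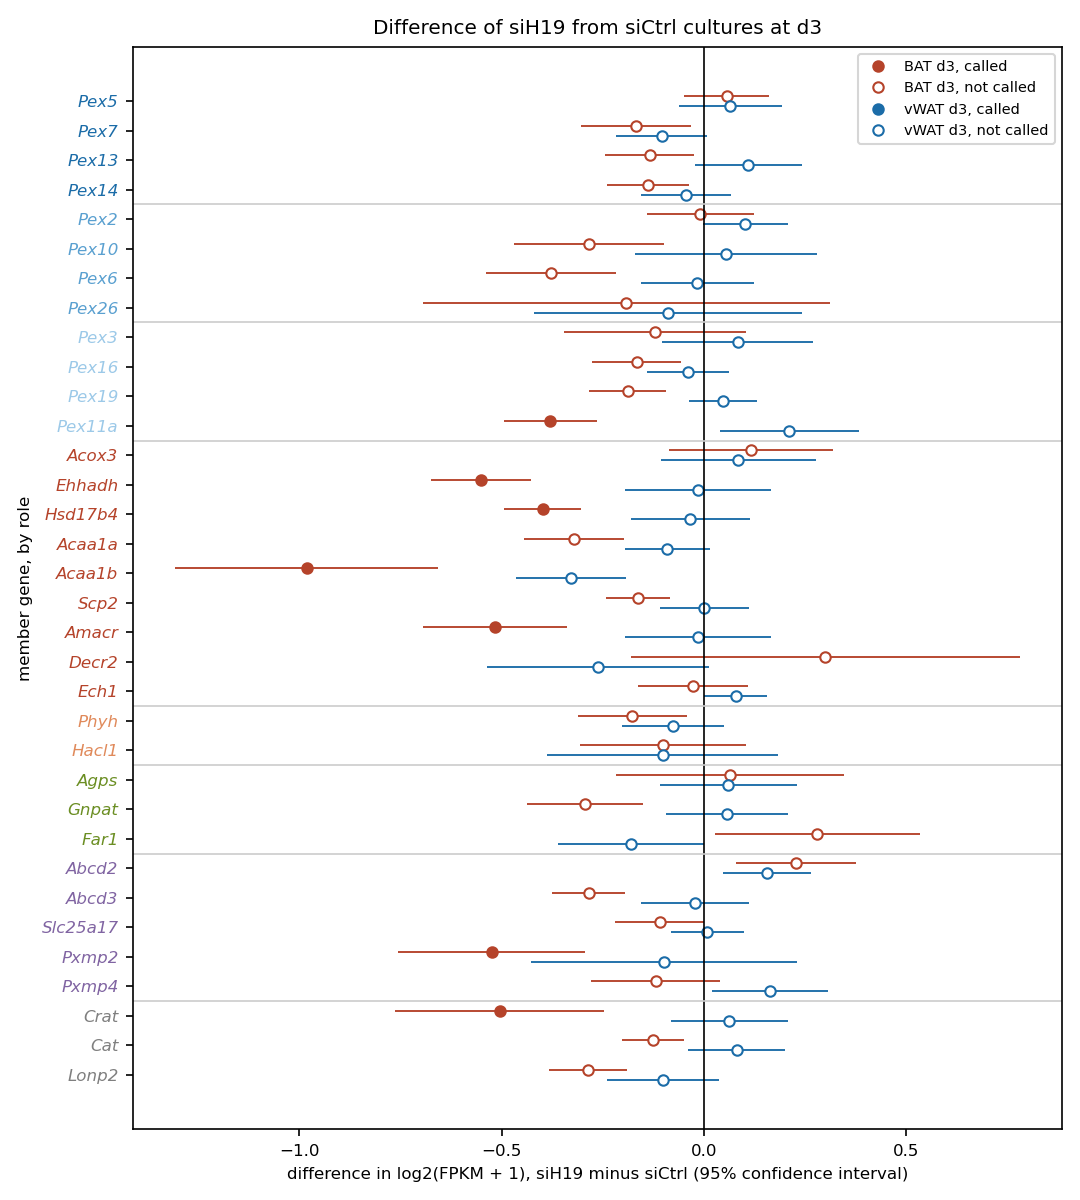
Difference in log2(FPKM + 1) between siH19 and siCtrl cultures at d3 for each member (x axis), with 95% confidence intervals, BAT in red and vWAT in blue, filled where called. The 7 filled points are all BAT and left of 0, with *Acaa1b* farthest at -0.98, while no vWAT point is filled.

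In vWAT at d3 no member was called in 34 tested, and 0.0305% of all genes were, 0.00764% higher and 0.0229% lower. limma gave an unadjusted p under 0.05 for 5 members, 3 higher and 2 lower, and for 1315 of all genes. The median difference was -0.01 for the members and -0.01 over all genes, and 17 estimates were on either side of 0. *Ehhadh* was at 16.7, 16.9 and 15.7 FPKM in siCtrl and 17.9, 15.9 and 15 FPKM in siH19 libraries (-0.01, 95% confidence interval -0.19 to 0.17). *Pex11a* was at 32.4, 33 and 35.9 FPKM against 40.7, 41.4 and 35.7 FPKM, an estimate of 0.21 (0.04 to 0.38). *Acaa1b* was at 18.3, 17.5 and 18.7 FPKM against 13.6, 14.9 and 14.3 FPKM, with every siH19 library below every siCtrl library, at -0.33 (SE 0.057, limma adjusted p = 0.251). None of the 9 adipocyte markers was called in this comparison, with 3 higher and 0 lower at an unadjusted limma p under 0.05. Their sums were 20772 to 21726 FPKM in siCtrl and 22809 to 24094 FPKM in siH19 libraries.

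Whether the siH19 difference itself differed between depots was tested over the 12 d3 libraries. The interaction was called lower, further down in BAT, for 11 of 34 members and higher for none, against 10.5% of all genes called, 7.02% higher and 3.52% lower. The largest were -0.65 (SE 0.16, limma adjusted p = 0.0262) for *Acaa1b*, -0.59 (SE 0.084, limma adjusted p = 0.00274) for *Pex11a*, -0.57 (SE 0.14, limma adjusted p = 0.0258) for *Crat*, -0.54 (SE 0.09, limma adjusted p = 0.00503) for *Ehhadh* and -0.50 (SE 0.099, limma adjusted p = 0.0107) for *Amacr*. In the vWAT libraries *Crat* was at 228, 221 and 196 FPKM with siCtrl and 223, 221 and 229 FPKM with siH19, and *Amacr* at 9.91, 9.81 and 8.72 and 9.96, 9.26 and 8.89 FPKM, both overlapping. *Hsd17b4*, *Pex6*, *Gnpat*, *Abcd3*, *Pex19* and *Cat* followed, at -0.37 to -0.21. The count fell to 5 without BAT siCtrl replicate 2, to 6 without BAT siH19 replicate 1, vWAT siCtrl replicate 3 or vWAT siH19 replicate 1, and to 7 without vWAT siCtrl replicate 2 or without the filter on low values, and *Pex19*, *Amacr*, *Ehhadh*, *Hsd17b4* and *Pex11a* were called in all 17 other settings. The *Acaa1b* call was lost in 10 of the 17 and the *Cat* call in 14. At an unadjusted limma p under 0.05, 18 members were lower and 1 higher, against 1159 lower and 2367 higher of all 13762 genes. At that level the interaction was also lower for 9 of 9 adipocyte, 6 of 8 brown adipocyte and 6 of 8 macrophage markers. For 5 of 6 precursor markers it was higher. The part of these lists in the member coefficients was not tested. In siH19 cells at d3, 17 members were higher and 1 lower in BAT than in vWAT (41.2% of all genes called, 15.9% higher and 25.2% lower), the lower one being *Pex11a* at 24, 22.8 and 23.2 FPKM against 40.7, 41.4 and 35.7 FPKM (log2 difference -0.72, SE 0.068, limma adjusted p = 0.00016).

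**Figure D5:**
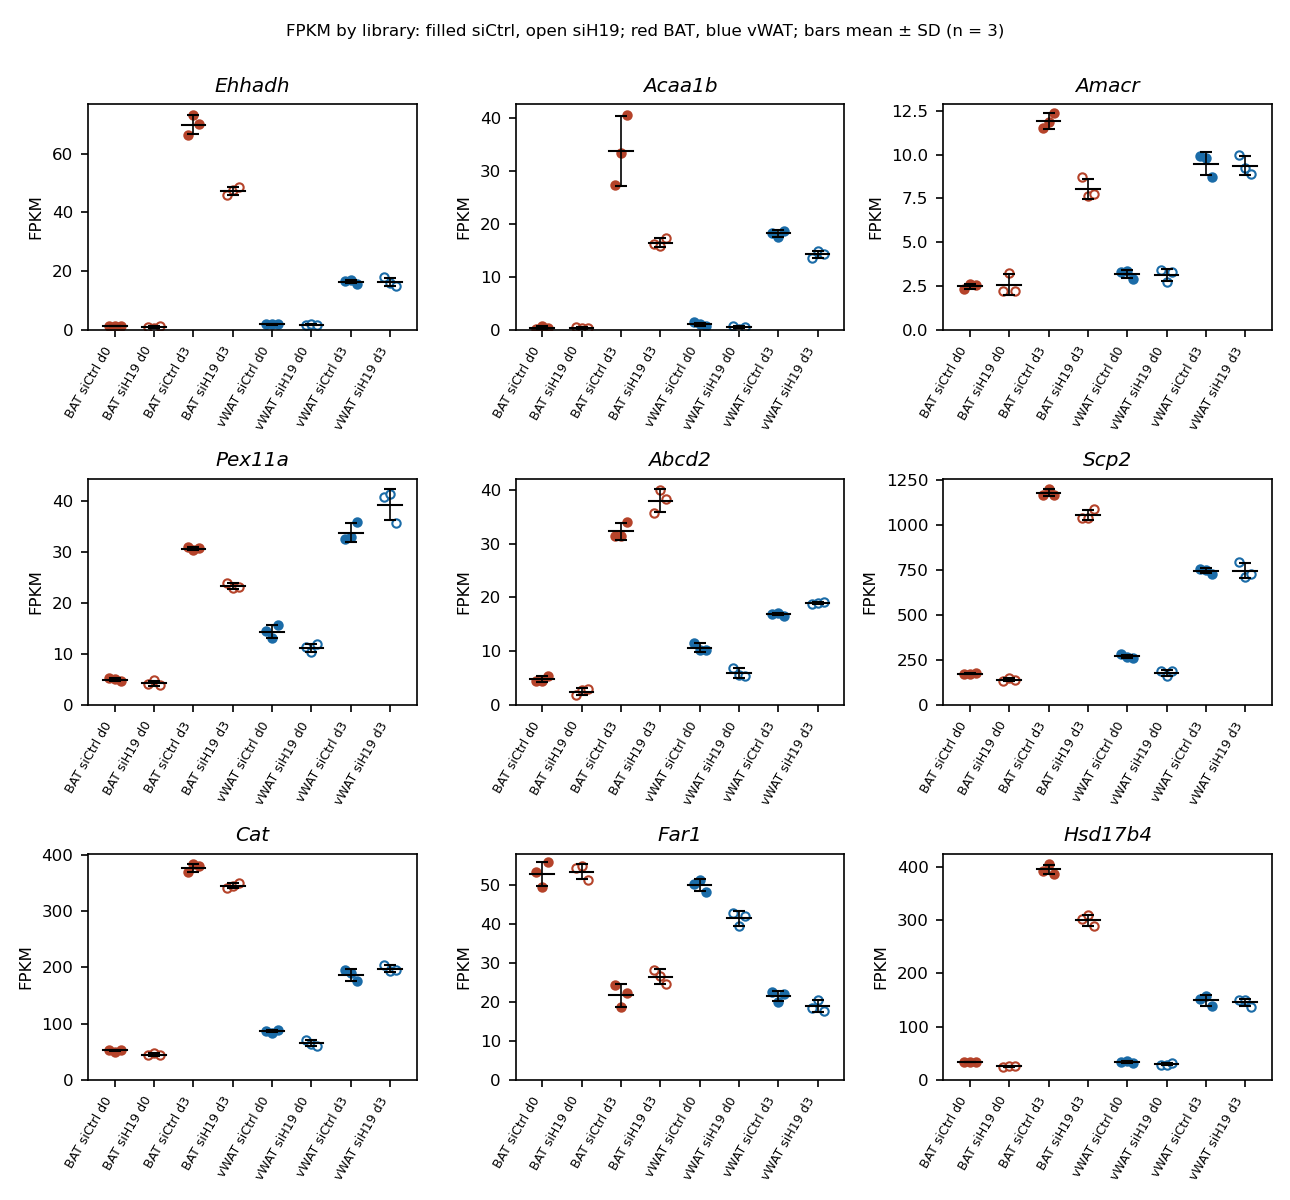
FPKM of 9 members in each library (points, y axis from 0), by group of depot, siRNA and day, with the mean and SD of 3 libraries as bars, BAT in red, vWAT in blue, siCtrl filled and siH19 open. In BAT at d3 the siH19 points of *Ehhadh*, *Acaa1b*, *Amacr*, *Pex11a* and *Hsd17b4* lie below all siCtrl points, and those of *Abcd2* lie above them.

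Other lists moved in the same BAT d3 comparison. Brown adipocyte markers were lower in siH19 cells for 6 of 8, and their sum was 820.0 to 935 FPKM in siCtrl and 490.4 to 561 FPKM in siH19 libraries. Their defining gene *Ucp1* was at 8.84, 11.2 and 16.3 FPKM against 2.00, 2.93 and 3.63 FPKM, and it was listed at 0 in all vWAT libraries. Precursor markers were higher for 4 of 5 tested, with sums of 384 to 429.7 and 635 to 693 FPKM. Macrophage markers were lower for 5 of 7 tested, with sums of 150.3 to 182 and 90.3 to 104 FPKM. Of these 7, *Adgre1* was under 1 FPKM in every siH19 library and was tested only through siCtrl. limma called none of the 9 adipocyte markers, but 8 were lower and 0 higher at an unadjusted p under 0.05. Their sums were 40921 to 42705 FPKM in siCtrl and 37244 to 39612 FPKM in siH19 libraries. The smallest limma adjusted p among them was 0.00312, so there only the 1.3-fold limit kept back a call. For 2 endothelial and 4 skeletal muscle markers tested limma called none, with 0 and 3 at an unadjusted p under 0.05. The part of these shifts in the member differences was not tested.

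Before differentiation *H19* RNAi gave few member calls, though most member estimates lay below 0 in both depots. In BAT at d0, 1 of 33 members tested was lower and none higher (1.94% of all genes called, 0.617% higher and 1.32% lower). Of the 33, 11 were lower and 0 higher at an unadjusted limma p under 0.05, against 1521 lower and 961 higher of all 12651 genes. The 1 called was *Hsd17b4*, at 33, 32.9 and 33.4 FPKM in siCtrl and 23.6, 25.7 and 26 FPKM in siH19 libraries (log2 difference -0.39, SE 0.053, limma adjusted p = 0.0255). The groups did not overlap, which held for 16.1% of all genes in the lower direction, and the call was lost whichever of the 6 libraries was left out, and also under median-ratio scaling and without the filter on low values. *Acaa1b* was too low to be tested at d0.

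In vWAT at d0, 3 of 33 members were lower and none higher (1.53% of all genes called, 0.329% higher and 1.2% lower). Of the 33, 15 were lower and 0 higher at an unadjusted limma p under 0.05, against 1516 lower and 787 higher of all 13063 genes. The median difference was -0.19 for the members and -0.03 over all genes, and 27 of the 33 estimates were below 0. The peroxins summed to 290.4 ± 5.05 FPKM in siCtrl and 249.9 ± 6.94 FPKM in siH19 libraries (SD, n = 3). The 22 other members summed to 887 ± 12.9 and 720 ± 44.5 FPKM. *Abcd2* was at 11.5, 10.3 and 10.1 FPKM in siCtrl and 6.94, 5.47 and 5.27 FPKM in siH19 libraries (log2 difference -0.76, SE 0.11, limma adjusted p = 0.027). *Scp2* was at 279.7, 265 and 261 FPKM against 185, 159.5 and 187 FPKM (log2 difference -0.60, SE 0.07, limma adjusted p = 0.0148), and *Cat* at 86.6, 84 and 87.8 FPKM against 71.4, 63.6 and 60.5 FPKM (log2 difference -0.40, SE 0.067, limma adjusted p = 0.042). All 3 were without overlap between groups, as were 16.2% of all genes in the lower direction. None was called without siCtrl replicate 1, 2 or 3, 1 was called without siH19 replicate 2 or 3, and none was called without the filter on low values. In both depots the adipocyte markers were lower with siH19 at d0 (6 of 9 in BAT and 7 of 9 in vWAT). Their sums were 3322 to 3612 FPKM in siCtrl and 1695 to 2251 FPKM in siH19 libraries of BAT, and 4382 to 4420.1 and 2615 to 2951 FPKM in vWAT. Macrophage markers were lower with siH19 for 3 of 8 tested in BAT at d0, with sums of 144 to 179 FPKM in siCtrl and 107 to 108 FPKM in siH19 libraries. In vWAT at d0 limma called none of 9, with 3 at an unadjusted p under 0.05 and sums of 347 to 387 and 339.7 to 373 FPKM. The part of these shifts in the member differences was not tested.

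The siH19 difference of *Abcd2* changed with the day in both depots. In BAT it was at 4.36, 4.50 and 5.40 FPKM in siCtrl and 1.73, 2.78 and 2.87 FPKM in siH19 libraries at d0, a difference of -0.75 that was not called (adjusted p = 0.0633 by limma), and was higher in siH19 libraries at d3, as given above. The interaction of day and siRNA, fitted over 12 libraries per depot, was called for 2 members in BAT (9.06% of all genes called, 7.79% higher and 1.27% lower) and 4 in vWAT (1.73%, 1.46% and 0.272%). In BAT it was 0.97 (SE 0.18, limma adjusted p = 0.00751) for *Abcd2* and -0.95 (SE 0.23, limma adjusted p = 0.027) for *Acaa1b*. The *Acaa1b* call was lost at a pseudocount of 0.1, without the filter, and without siCtrl d0 replicate 1 or 3, siCtrl d3 replicate 2 or 3, siH19 d0 replicate 1 or siH19 d3 replicate 1 or 2, while 4 members were called without siH19 d0 replicate 2. In vWAT it was 0.92 (SE 0.12, limma adjusted p = 0.00396) for *Abcd2*, 0.60 (SE 0.088, limma adjusted p = 0.00759) for *Scp2*, 0.54 (SE 0.11, limma adjusted p = 0.0419) for *Pex11a* and 0.48 (SE 0.086, limma adjusted p = 0.0215) for *Cat*. At d3 in vWAT *Abcd2* was at 16.9, 17.1 and 16.6 FPKM with siCtrl and 18.8, 18.9 and 19.1 FPKM with siH19, *Scp2* at 754, 749.7 and 729 and 794, 713 and 729 FPKM, and *Cat* at 195, 191 and 175 and 204, 193 and 196 FPKM. *Pex11a* was at 14.5, 13.1 and 15.6 and 11.4, 10.4 and 11.9 FPKM at d0. For *Abcd2* and *Scp2* these calls held in all 17 other settings, whereas the *Pex11a* call was lost in 11 and the *Cat* call in 6. The vWAT count fell to 2 without siCtrl d0 replicate 1, siCtrl d3 replicate 3, siH19 d0 replicate 2 or siH19 d3 replicate 1.

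Outside the 34, a list of 53 further peroxisomal genes was followed. From d0 to d3 in siCtrl cells 37 of 45 tested rose and 3 fell in BAT, and 34 of 45 rose and 1 fell in vWAT. Of all genes, 29.9% were called higher and 35.3% lower in BAT, and 26.3% and 23.9% in vWAT. Among the largest rises in BAT were those of *Acsl1* (6.19), a long-chain acyl-CoA synthetase also found at other membranes, and *Hsdl2* (4.22). *Acsl4* (-0.68), *Mpv17l* (-0.52) and *Tmem189* (-0.51) fell. In vWAT *Acot5* (4.15), *Acsl1* (3.35) and *Ephx2* (3.31) rose most and *Acsl4* (-2.01) fell. *Acot5*, *Far2* and *Pex5l* in both depots, and *Acot3* and *Ddo* in BAT, were under 1 FPKM in every d0 library and passed the filter only through d3, so that their rise was built into their being tested. Between depots, 15 of 41 tested were lower in BAT at d0 and none higher, led by *Acot3* (-1.65), *Acsl4* (-1.61) and *Acsl1* (-1.60). Of all genes, 21% were called lower and 10.2% higher there. At d3, 26 of 46 were higher and 4 lower in BAT, against 16.5% of all genes called higher and 32.1% lower. *Hsdl2* (1.60), *Mlycd* (1.29) and *Acsl1* (1.24) were highest and *Acot3* (-1.60), *Acot5* (-0.88) and *Agxt* (-0.81) lowest. *Acot3* at d0 and *Agxt* at d3 were under 1 FPKM in every BAT library and were tested only through vWAT, where they were higher.

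With siH19 in BAT at d3, 3 of 45 of these genes were called lower and none higher, against 2.18% of all genes lower and 6.39% higher. They were *Ddo*, D-aspartate oxidase (log2 difference -0.89, SE 0.13, limma adjusted p = 0.00694), *Far2*, the second fatty acyl-CoA reductase (-0.49), and *Nudt7*, a hydrolase of coenzyme A (-0.45). At an unadjusted limma p under 0.05, 20 of the 45 were lower and 3 higher, against 1380 lower and 2533 higher of all 12500 genes. In vWAT at d3 limma called 0 of 46, with 8 at an unadjusted p under 0.05, and 0.0305% of all genes were called. At d0 *Acsl1* (-1.23) and *Ephx2* (-0.67) were lower in BAT among 39 tested, and 6 of 41 were lower in vWAT, led by *Acsl1* (-1.13), *Acot3* (-0.82) and *Ephx2* (-0.80). Of all genes, 1.32% were called lower in BAT and 1.2% in vWAT at d0.

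Of 9 regulators of these genes that were followed, *Ppara* and *Ppargc1a* were lower with siH19 in BAT at d3. *Ppara*, the receptor that drives fatty acid oxidation genes, was at 0.780, 0.171 and 2.12 FPKM at d0 and 16.7, 16.1 and 23.7 FPKM at d3 in BAT siCtrl cells (log2 difference 3.39, SE 0.35, limma adjusted p = 0.000124), and at 2.47, 3.59 and 2.46 FPKM at d3 in vWAT. In the BAT day comparison it passed the filter on low values only with its d3 libraries. It was lower in siH19 BAT cells at d3, at 9.71, 10.3 and 8.08 FPKM (log2 difference -0.92, SE 0.16, limma adjusted p = 0.0126), and its interaction with depot was -0.95 (SE 0.25, limma adjusted p = 0.0396). The coactivator *Ppargc1a*, which is also on the brown marker list, was at 13.1, 15.8 and 11.6 FPKM against 6.59, 8.37 and 6.88 FPKM in the same cells (log2 difference -0.81, SE 0.13, limma adjusted p = 0.0108). *Pparg*, the adipogenic receptor and also an adipocyte marker, was at 123, 126 and 124 FPKM against 114, 131 and 129 FPKM there (0.00, 95% confidence interval -0.14 to 0.14), but was lower with siH19 at d0 in BAT (-0.60) and vWAT (-0.46).

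From d0 to d3 in BAT siCtrl cells *Nr1h3* (3.82), *Ppargc1b* (3.55), *Ppargc1a* (2.77), *Pparg* (1.45), *Rxra* (0.73) and *Ppard* (0.46) rose with *Ppara*, while *Rxrb* (0.31) and *Prdm16* (0.31) were not called. In vWAT 6 of 8 tested rose, among them *Nr1h3* (2.09) and *Ppargc1b* (1.38). *Ppargc1b* in both depots and *Ppargc1a* in vWAT were under 1 FPKM in every d0 library and passed the filter only through d3. In BAT *Ppara* and *Ppargc1a*, under 1 FPKM in some d0 libraries, also passed only with d3. At d3 *Ppara* (2.36), *Ppargc1a* (2.26) and *Ppargc1b* (1.96) were higher in BAT than in vWAT. With siH19 in BAT at d3 *Ppargc1b* (-0.35), *Nr1h3* (-0.22), *Rxrb* (-0.10), *Rxra* (-0.09), *Ppard* (-0.09) and *Prdm16* (0.02) were not called. *Ppargc1b* lay just under the 1.3-fold limit, at 16.5, 15.5 and 15.8 FPKM in siCtrl and 13, 12.2 and 11.5 FPKM in siH19 libraries. Its groups did not overlap, which held for 13.1% of all genes in the lower direction. At an unadjusted limma p under 0.05, 3 of the 9 regulators were lower and 0 higher. In vWAT at d3 limma called none of the 8 regulators tested, with 1 at an unadjusted p under 0.05.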

How the data were processed

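Total RNA of 24 libraries was sequenced by the submitters. The labels give a directional kit and paired reads, and the methods a kit not said to be directional and single-end reads. The processing notes of the authors name STAR, TopHat2 2.0.10, Cufflinks 2.2.1, DESeq2, FastQC 0.10.1 and R 3.2.2 with GRCm38.p5; whether counting used strand is not given in the sources used here. The deposited table holds FPKM made by the authors for 49452 genes, taken to be FPKM from the named tools and from the values, 1 column for each library, and 0 columns of per-sample values were left unused. It holds no counts, so the number of reads behind a value is unknown and a count test could not be fitted. Groups came from the labels' depot, siRNA and day.

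FPKM were compared as log2(FPKM + 1) with limma 3.58.1 (trended empirical Bayes moderation) in R 4.3.3, within the 6 libraries of a pair of groups or the 12 of an interaction, over genes at 1 FPKM or more in at least 3 of those libraries, with Benjamini-Hochberg adjustment over all of them. A pair of groups was called at an adjusted p under 0.05 and 1.3-fold, and an interaction at the adjusted p alone. On simulated data for siH19 against siCtrl in BAT at d3 (12656 genes), 33 of 100 genes planted at a log2 difference of 0.5 and 78 of 100 planted at 1 were recovered.

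The members, marker lists and gene lists were chosen with earlier results of these data known. Members shown by library are, for each comparison, the called ones with the largest differences (up to 5 in an interaction, 3 between depots), and of the further peroxisomal genes the 3 largest in each direction are named, except 1 that is not reported here; *Pex16*, *Pex3*, *Pex2*, *Acaa1a* and members not called were added after their values were seen. Alternatives were a pseudocount of 0.1, no filter on low values, median-ratio scaling, 1 model over all 24 libraries, a replicate block, no minimum fold and leaving out each library. Promoter windows and motif matches came from RefSeq tables (GRCm38.p6), and exon overlaps from GENCODE M21.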

Additional observations from a re-analysis of the deposited data

Results flagged for a closer look

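For 46 combinations of a member and an interaction, the difference between one pair of groups itself differed between depots or days, by limma at a Benjamini-Hochberg adjusted p under 0.05 over all genes tested. Each value is the interaction coefficient in log2(FPKM + 1).

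The largest set was the day difference in siCtrl cells, which was larger in BAT than in vWAT for 29 members. Among peroxins the coefficients were 1.47 (*Pex3*), 1.35 (*Pex16*), 1.27 (*Pex13*), 1.25 (*Pex5*), 1.24 (*Pex11a*), 0.97 (*Pex10*), 0.86 (*Pex7*), 0.76 (*Pex14*), 0.69 (*Pex6*), 0.60 (*Pex19*) and 0.28 (*Pex2*). Among β-oxidation genes they were 2.34 (*Ehhadh*), 1.40 (*Hsd17b4*), 1.39 (*Acaa1b*), 1.29 (*Scp2*), 0.57 (*Amacr*), 0.55 (*Ech1*) and 0.51 (*Acaa1a*). Among the other enzymes and membrane proteins they were 1.91 (*Abcd2*), 1.72 (*Cat*), 1.49 (*Hacl1*), 1.42 (*Crat*), 1.2 (*Gnpat*), 0.98 (*Lonp2*), 0.97 (*Pxmp4*), 0.93 (*Phyh*), 0.81 (*Abcd3*), 0.69 (*Slc25a17*) and 0.38 (*Agps*). *Agps* is in this set through a larger fall in vWAT, and *Pex2* without a called difference between days in either depot.

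The siH19 difference at d3 lay lower in BAT than in vWAT for 11 members, by -0.65 (*Acaa1b*), -0.59 (*Pex11a*), -0.57 (*Crat*), -0.54 (*Ehhadh*), -0.50 (*Amacr*), -0.37 (*Hsd17b4*), -0.36 (*Pex6*), -0.35 (*Gnpat*), -0.26 (*Abcd3*), -0.24 (*Pex19*) and -0.21 (*Cat*). Between days, the siH19 difference moved by 0.97 (*Abcd2*) and -0.95 (*Acaa1b*) in BAT and by 0.92 (*Abcd2*), 0.60 (*Scp2*), 0.54 (*Pex11a*) and 0.48 (*Cat*) in vWAT. No cause was tested for any of these, and depot and differentiation medium cannot be told apart.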

How the results depend on the processing

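No called member changed sign under any alternative that was run, whereas the signs of members that were not called could move. Under median-ratio scaling the split of positive and negative member estimates went from 4 and 29 to 11 and 22 between depots at d0, from 6 and 27 to 9 and 24 for siH19 in vWAT at d0, and from 16 and 18 to 12 and 22 for the interaction of day and siRNA in BAT. Over the pairs of a member and a comparison called in at least 1 setting, 3640 values under an alternative stayed on the same side of the threshold. Of the rest, 142 lost a call and 100 gained one. Counts over all genes are in parentheses. The 7 members called with siH19 in BAT at d3 (1071) became 15 with no minimum fold (2023), and 5 to 7 on leaving out 1 library (631 to 916). The 1 member called in BAT at d0 (245) became 0 without the filter on low values (35) and under median-ratio scaling (234). That count became 4 in 1 model over all 24 libraries (526), 2 with no minimum fold (395) and 0 to 0 without any 1 library (4 to 74). The 3 called in vWAT at d0 (200) became 0 without the filter (65), 5 in the 24-library model (378) and 0 to 3 on leaving out a library (37 to 122). In vWAT at d3 the count was 0 in every alternative. Between depots at d0, 13 (4096) became 21 with no minimum fold (6386), and 12 to 15 on leaving out a library (3494 to 3819). The interaction of depot and siRNA at d3 went from 11 (1451) to 7 without the filter (1037) and to 5 to 12 on leaving out a library (889 to 1432). That of day and siRNA in BAT went from 2 (1230) to 1 at a pseudocount of 0.1 (1239), 1 without the filter (933) and 6 under median-ratio scaling (858). On leaving out a library it was 1 to 4 in BAT (801 to 1091), and in vWAT it went from 4 (241) to 2 to 5 (127 to 241). Apart from the replicate block, given below, the other counts stayed within 1.5 times. The causes were not tested, except that the fold limit removes calls by construction.

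Median-ratio scaling moved the split of all genes called higher and lower. It went from 799 and 272 to 627 and 410 for siH19 in BAT at d3, from 966 and 485 to 635 and 759 for the interaction of depot and siRNA, from 3514 and 3959 to 3995 and 3525 for that of depot and day, and from 1058 and 172 to 524 and 334 for that of day and siRNA in BAT. Between depots it went from 1343 and 2753 to 1833 and 1956 at d0, and from 2162 and 4216 to 2801 and 3347 at d3.

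Libraries share replicate numbers 1 to 3, but same-numbered libraries did not deviate together (correlation of deviations -0.11 to 0.09, none above 0.1), and nothing in the labels pairs them. With the replicate number as a block, 0 members were called with siH19 in BAT at d0, 0 in vWAT at d0 and 8 for the interaction of depot and siRNA at d3. Over all genes, 2, 2 and 1127 were then called, against 245, 200 and 1451 without the block.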
